A study of Mus musculus with 3 samples.

Results

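The genes examined here are 42 mouse genes of the pluripotency network and the epiblast, taken as a fixed list of symbols and found by Ensembl identifier among the 29267 genes counted by RNA-seq. All 42 were present in the tables. By their known roles they were divided into 14 core genes, 15 naive genes, 3 primed genes and 10 signalling genes. Expression was measured in 3 libraries, 1 each of MEFs (mouse embryonic fibroblasts) of the OG2 strain, of MEFs of the ICR strain and of naive-labelled R1 ESCs (embryonic stem cells), and none of these cultures carried a reprogramming treatment by its labels. OG2 mice carry an Oct4-GFP transgene, which reports activity of the Pou5f1 promoter, and both MEF cultures were at passages 3 to 5, while the ESCs were an established line at passage 30. MEFs are the cells from which reprogramming starts and ESCs are its reference end point, so the comparison asks which pluripotency genes separated the start from the end and which were already expressed in fibroblasts. Both MEF samples were treated as a group of n = 2, and the ESC side had n = 1. The MEF samples also differ in strain, with 1 library each, so strain and culture cannot be told apart.

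In ESCs the homeobox and HMG-box factors Nanog, Pou5f1 (Oct4) and Sox2 bind together at their own genes and at those of many other factors, and this circuit keeps the cells undifferentiated. Naive cells, which correspond to the epiblast before implantation, add factors such as Esrrb, Tfcp2l1, Klf2 and Zfp42 (Rex1) and depend on LIF, whose signal passes through Lifr and Il6st (gp130) to STAT3. Primed cells, which correspond to the epiblast after implantation, lose these factors and gain Fgf5 and Otx2 under FGF and Nodal signals. Fibroblasts share some of the regulators, since Klf4, Myc and the LIF receptor chains have roles in many tissues.

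Summed expected counts reached 5149312 (OG2 MEFs), 4590619 (ICR MEFs) and 1717838 (ESC). Below, a count is an RSEM expected count rounded to a whole number, and CPM is the count relative to the TMM-scaled library size, in the usual unit of that name. On this scale 3 counts, which is the limit that a count of 0 allows and is used here as the limit for holding a gene, were 0.532, 0.580 and 2.15 CPM in the same order. Intervals are computed from the counts alone, so they cover counting error and not variation between cultures or preparations. The reads carry no molecular identifiers, so copies of the same molecule are not told apart. Over the 17810 genes with a count, Pearson's r of log2(CPM + 1) was 0.987 for the MEF pair and 0.747 and 0.744 for OG2 and ICR MEFs with the ESC library, as a description, since genes are not independent. The ESC library thus stood apart, and its 15 highest genes took 18.3% of its counts against 9.88% and 9.20% in OG2 and ICR MEFs. Of 8 genes that mark pluripotent cells (Pou5f1, Sox2, Nanog, Zfp42, Esrrb, Dppa5a, Tdgf1 and Utf1) it held 3, and 4 were at 0. It is therefore called the library labelled ESC. All 12 fibroblast markers were detected in it. The edgeR test described below called all 12 lower, against 36.0% of all tested genes. Their summed level was 4251 CPM against 34015 and 35734 CPM in OG2 and ICR MEFs. The 12 squamous epithelium markers summed to 456 CPM against 30.4 and 57.1 CPM, with 6 of them at 0 in the library labelled ESC and the keratin gene Krt14 at 414 counts against 2 and 8. The 8 trophectoderm markers summed to 180 CPM against 19.3 and 25.2 CPM. The library labelled ESC held 6 of them and each MEF sample 4, where 40.6% of all genes were held by the library labelled ESC. Krt8 had 177 counts against 6 and 19 and Elf5 had 12 against 0 and 0, while the defining gene Cdx2 and Hand1 had 0. Over the 8 simple epithelium markers the sums were 158 against 42.6 and 39.7 CPM, with 2 at 0. Those of primitive endoderm gave 1270 against 3589 and 3731 CPM with 3 at 0, neural markers 32.3 against 103 and 131 CPM with 2 at 0, and immune markers 86.8 against 70.3 and 38.7 CPM with 4 at 0. The neural sum rests on Tubb3 and Map2. That of primitive endoderm is mostly Sparc, at 1233 CPM against 3270 and 3455 CPM. In the immune sum Itgam rose to 63.1 from 3.73 and 2.13 CPM, while Lyz2 fell to 9.32 from 42.1 and 25.5 CPM. By 1 log2 unit or more, 3 neural markers were above both MEF samples (Pax6 at 7 counts, Sox1 and Dcx at 2 each) and 2 were below. Of the immune markers 1 was as far above both and 1 as far below. Among all genes with a count, 21.9% were as far above both and 25.9% as far below. Germ cell markers summed to 7.17 against 1.42 and 1.74 CPM with 5 of 8 at 0, and all 8 markers of 2-cell-like cells were at 0 in the library labelled ESC. The part of these other cell types in the results below was not tested.

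The library labelled ESC held 17 of the 42 genes at 3 or more counts, while 40.6% of all genes in the tables passed the same limit. A further 9 had 1 or 2 counts and 16 had none, where 14355 of all 29267 genes had a count in this library. OG2 MEFs held 15 of the genes and ICR MEFs 14. By group, the library labelled ESC held 9 of 14 core genes, 4 of 15 naive genes, 0 of 3 primed genes and 4 of 10 signalling genes. A set of 4 genes (Pou5f1, Sall4, Fgf4 and Gdf3) were held in it with 0 counts in both MEF samples, a pattern shared by 1.09% of all genes in the tables, and 12 had 0 counts in all 3 libraries, as did 39.1% of all genes. In bulk samples, fewer cells of a type and less RNA per cell cannot be told apart.

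**Figure D1:**
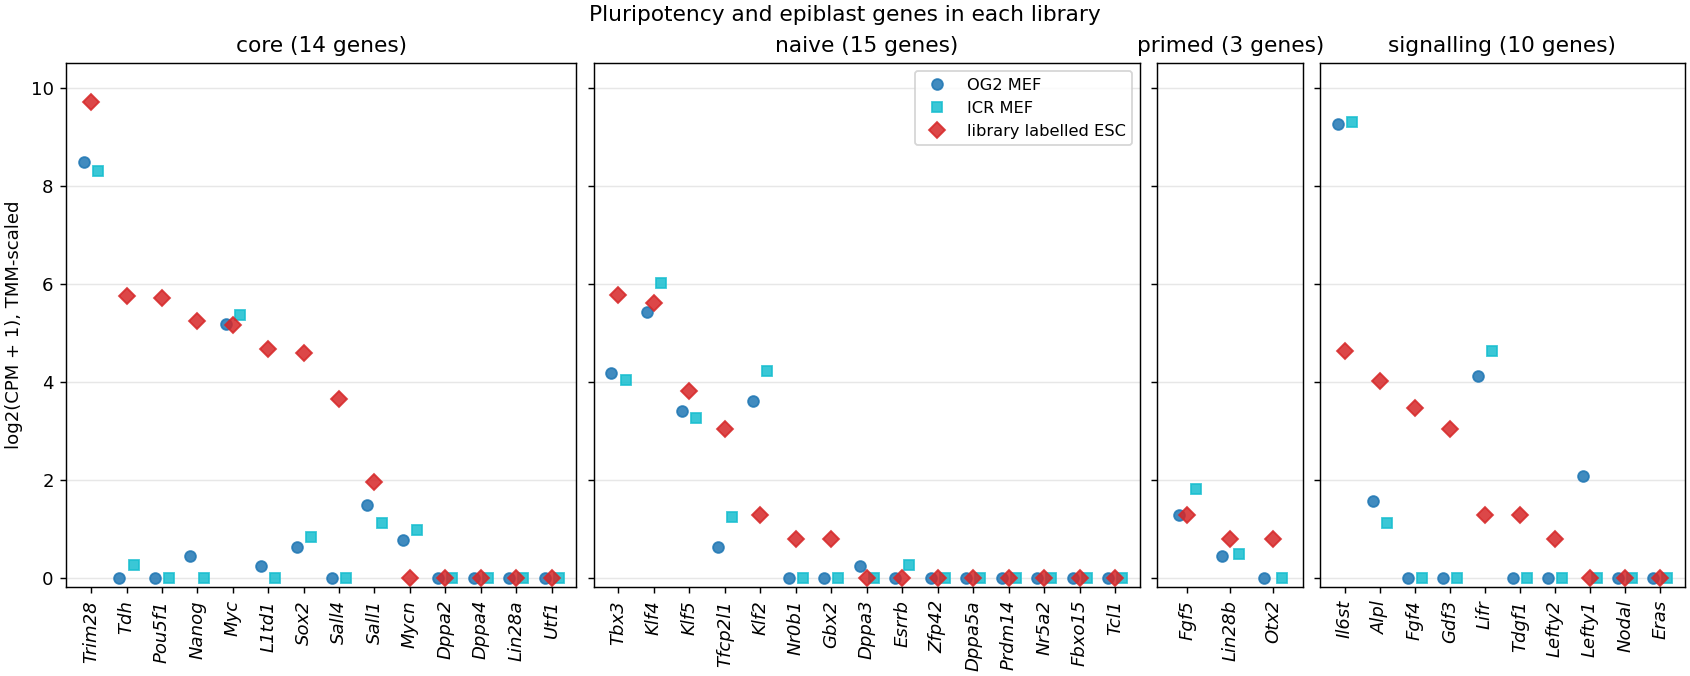
Level of each of the 42 genes as log2(CPM + 1), TMM-scaled, in OG2 MEFs (circles), ICR MEFs (squares) and the library labelled ESC (diamonds), in panels for core, naive, primed and signalling genes and ordered by the library labelled ESC. Of the core genes, 7 exceeded OG2 and ICR MEFs by 1 log2 unit or more, against 21.9% of all genes with a count. In the library labelled ESC 8 of 15 naive genes were at 0, and 14355 of all 29267 genes had a count there.

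With edgeR's quasi-likelihood test over all genes, 12663 genes were tested and 19 of the 42 were among them. The spread came from the MEF pair alone with 1 residual degree of freedom, so the p-values assume that ESC libraries vary as these MEFs do, and each adjusted p given below is from this test with Benjamini-Hochberg adjustment over all genes tested. The log2 differences given beside them are on the log2(CPM + 1) scale and are not edgeR's own estimates. Of the 19, 10 were higher and 3 lower in the library labelled ESC at an adjusted p under 0.05, against 31.4% of all tested genes higher and 36.0% lower. Of these 10, 8 passed the filter on low counts only through the library labelled ESC, as did Sall1, which was not called. Such genes entered the test through their level in that library, so neither their number nor their p-values are used as support. The 8 were Pou5f1, Sox2, Nanog, Sall4, L1td1, Tdh, Tfcp2l1 and Alpl, for which no adjusted p from this test is given below. By size alone, 13 of the 30 genes of the list with a count exceeded OG2 and ICR MEFs by 1 log2 unit or more. A further 3 were as far below both, against 21.9% above and 25.9% below among the 17810 genes with a count. The 13 include Tdgf1, which had only 2 counts in the library labelled ESC.

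Among the core factors, Pou5f1, the POU-domain factor Oct4, lies at chr17:35506018-35510772 on the plus strand (GRCm38). It had 0 counts in both MEF samples and 71 in the library labelled ESC. This was 50.9 CPM (exact Poisson 95% interval 39.8 to 64.2) and at least 87.7-fold higher than 3 counts in ICR MEFs. The log2 difference was 5.70, and 3.56 once GC content and length were corrected for. That correction took the mean annotated length of 739.5 bases, while RSEM gave 1362 bases for Pou5f1 in the library labelled ESC. Nanog, which holds cells in the undifferentiated state (chr6:122707489-122714633, plus strand), had 2, 0 and 51 counts, given here and from here on in the order OG2 MEFs, ICR MEFs, library labelled ESC. The last was 36.6 CPM (27.2 to 48.1). Its ratio to the pooled MEF samples was 198 (exact 95% interval from the counts 52.0 to 1675). Sox2, the HMG-box partner of Oct4 (chr3:34650405-34652461, plus strand), had 3, 4 and 32 counts, a ratio of 35.4 (15.4 to 95.1). All 3 factors thus had more counts in the library labelled ESC, the shallowest of the 3, than in either MEF sample. The level differed among them, with Pou5f1 at 29.6 TPM, Nanog at 14.03 TPM and Sox2 at 7.02 TPM in the library labelled ESC. TPM is scaled by length and can be compared between genes.

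The promoters of these genes were searched in RefSeq windows on GRCm38.p6, which reach from 250 bases before to 50 bases after a transcript start and were found for 28 of the 42 genes. Searched on both strands were the octamer core ATGCAAA that Oct4 recognises, the SOX motif CATTGT, and the composite of both, the SOX motif followed after 1 free base by the octamer core, which therefore contains the other pair. The composite occurred in 2 of 32851 windows (0.00609%), which are overlapping windows of Nanog that share 1 match. The octamer core occurred in 4.63% of all windows and, among the 42 genes, in those of Nanog, Sox2 and Zfp42. The SOX motif occurred in 12.6% of all windows and, among the 42 genes, in those of Nanog, Pou5f1, Lin28a, Esrrb, Lifr and Eras. The Pou5f1 match was in the window chr17:35508557-35508856, which lies inside the gene, and the window at the gene start given above had no match. The Lifr window with the match also lies inside its gene, and the Esrrb match lies after the start. The 250 bases upstream of the start are shown for the 3 genes with an octamer core, because they differ in the library labelled ESC: Nanog had 51 counts, Sox2 32 and Zfp42 0. Capitals mark the octamer core and the SOX motif on either strand, and a match is a description of the letters, not of binding. The Sox2 start in RefSeq lies upstream of the GENCODE start given above. The Nanog sequence is chr6:122707239-122707488 on the plus strand, that of Sox2 chr3:34649745-34649994 on the plus strand and that of Zfp42 chr8:43307010-43307259 on the minus strand.
Nanog: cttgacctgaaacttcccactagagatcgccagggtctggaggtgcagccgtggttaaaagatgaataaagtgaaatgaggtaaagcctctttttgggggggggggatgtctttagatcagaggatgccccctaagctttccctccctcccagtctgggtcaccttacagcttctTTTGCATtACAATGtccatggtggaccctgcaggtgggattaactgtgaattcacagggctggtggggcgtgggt
Sox2: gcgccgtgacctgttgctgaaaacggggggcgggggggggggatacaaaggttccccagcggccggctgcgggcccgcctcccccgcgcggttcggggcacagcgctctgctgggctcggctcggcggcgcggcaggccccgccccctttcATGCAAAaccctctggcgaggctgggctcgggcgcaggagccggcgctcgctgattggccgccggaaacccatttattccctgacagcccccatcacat
Zfp42: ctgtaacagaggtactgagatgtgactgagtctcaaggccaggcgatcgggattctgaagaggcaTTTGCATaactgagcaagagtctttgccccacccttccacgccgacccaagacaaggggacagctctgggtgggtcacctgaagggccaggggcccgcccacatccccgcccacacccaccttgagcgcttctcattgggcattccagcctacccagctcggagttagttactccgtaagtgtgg

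Further core genes were high in the library labelled ESC. Tdh, a threonine dehydrogenase on which mouse ESCs depend, had 0, 1 and 73 counts, a ratio of 565 (exact 95% interval 98.4 to 22638). The 73 counts were the most of any gene of the 42 that was under 3 counts in both MEF samples. L1td1, an RNA-binding protein derived from a retrotransposon, had 1, 0 and 34 counts, a ratio of 263 (44.2 to 10705). The zinc-finger factor Sall4, a partner of Oct4, had 0, 0 and 16 counts, at least 19.8-fold higher than 3 counts in ICR MEFs. Its relative Sall1 had 10, 6 and 4 counts and did not pass the test, with a log2 difference of 0.66 on the CPM scale and -0.185 on the TPM scale.

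The remaining core genes, apart from Trim28 and Myc, had no count in the library labelled ESC. Dppa2 and Dppa4, a pair of chromatin-associated partners, Lin28a, which blocks maturation of let-7, and Utf1, a chromatin regulator, had 0 counts in each of the 3 libraries. At this depth a count of 0 allows up to 2.15 CPM in the library labelled ESC, so their expression was not detectable. Pou5f1, at 50.9 CPM, was far above both levels. Mycn, the Myc relative used by ESCs, had 4, 5 and 0 counts, and since the MEF level would give 1.16 counts at the depth of the library labelled ESC, no difference was detectable.

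Trim28 and Myc were expressed in fibroblasts already. Trim28 (chr7:12999114-13031035, plus strand), the corepressor KAP1 that silences retroelements in ESCs and is also used by other cells, had 2012, 1611 and 1157 counts, or 357, 312 and 830 CPM. The library labelled ESC was above both MEF samples, with a log2 difference of 1.31 and an adjusted p of 7.7e-05, and the difference was 0.72 after full-quantile normalization and 0.49 once GC content and length were corrected for. RSEM also assigned its reads to shorter transcripts. The abundance-weighted length RSEM gave for Trim28 was 2411 and 2458 bases in the MEF samples and 586 in the library labelled ESC, or 24.1% of the MEF mean, and the rise in TPM, to 1328 from 320 and 293, exceeded that in CPM. The length for Klf4 was 3029 bases in both MEF samples and 967 in the library labelled ESC (31.9%). Of 6 genes of the list with at least 10 counts in each library, only these were at or below 50% of the MEF length, against 5.97% of 8336 genes with such counts. Between OG2 and ICR MEFs none of the 6 differed in length by a factor of 2, against 0.408% of those genes. Myc, a driver of growth and 1 of the reprogramming factors, had 198, 207 and 48 counts, or 35.1, 40.0 and 34.4 CPM, which did not pass the test (log2 difference -0.12, adjusted p = 0.87), and the difference was -1.01 once GC content and length were corrected for. The log2 estimate of edgeR itself for Myc was 0.045.

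**Figure D2:**
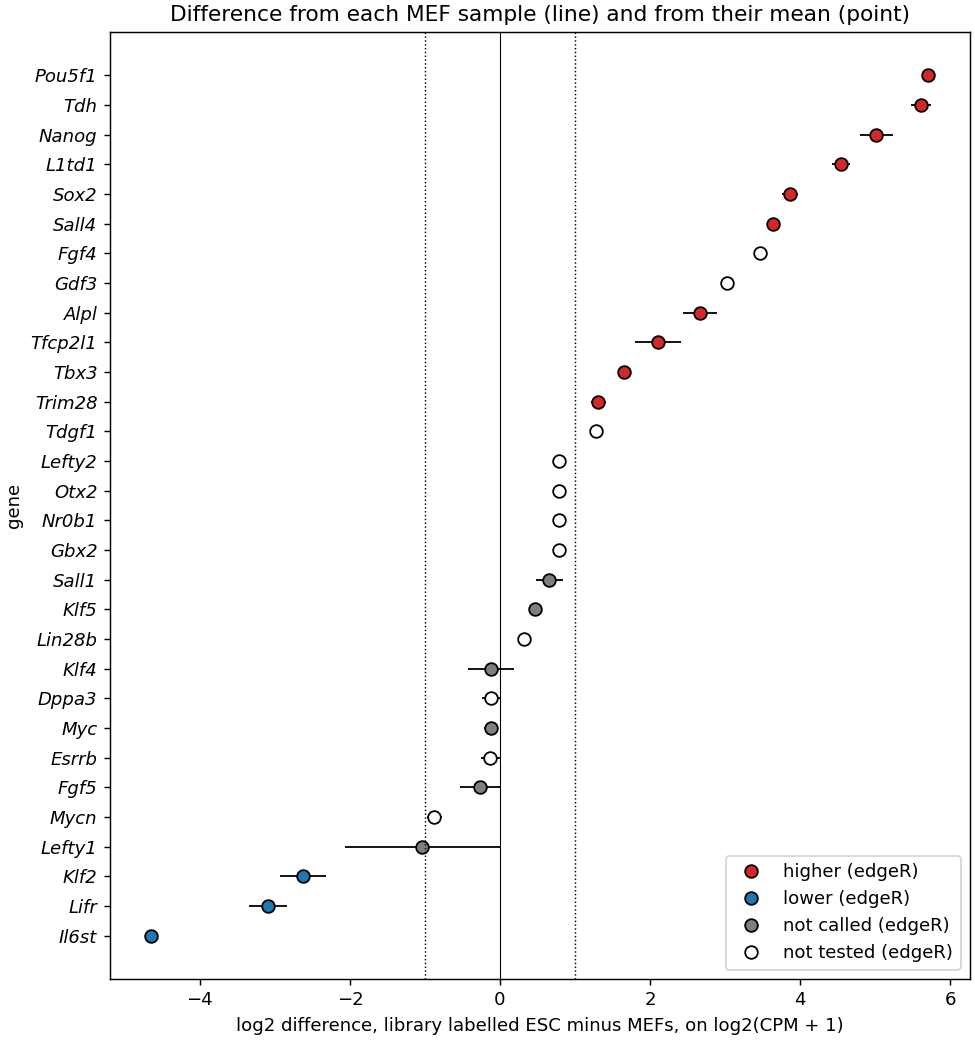
Log2 difference of the library labelled ESC from MEFs for the 30 genes with a count, on the log2(CPM + 1) scale; points are the difference from the mean of both MEF samples, lines join the differences from OG2 and ICR MEFs, and fills give the edgeR call. The differences ran from -4.65 for Il6st to 5.70 for Pou5f1, and the line reached 0 for Klf4, Fgf5, Lefty1, Dppa3 and Esrrb.

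Of the 15 naive genes the library labelled ESC held 4, against 40.6% of all genes in the tables. Tfcp2l1, a target of STAT3 that sustains naive cells, had 3, 7 and 10 counts, or 0.532, 1.35 and 7.17 CPM. Both MEF samples were below the library labelled ESC, with a ratio of 7.75 (exact 95% interval 2.89 to 20.7), but DESeq2's Wald test did not call it (adjusted p = 0.12). The log2 difference was 2.10 with CPM and 0.36 with TPM. Tbx3, a T-box factor downstream of LIF that also patterns the limb, had 96, 79 and 74 counts, or 17.04, 15.3 and 53.1 CPM. It rose by 1.66 on the log2(CPM + 1) scale with an adjusted p of 1.1e-04, but its TPM was 7.34, 9.41 and 8.03, so that the difference on the log2(TPM + 1) scale was -0.045, where the median of all genes with enough counts moved by -1.11. The direction for Tbx3 thus depended on the scale.

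The Krüppel-like factors, which can stand in for each other in ESCs, gave unlike values. Klf2 had 63, 91 and 2 counts, or 11.2, 17.6 and 1.43 CPM. It was lower in the library labelled ESC than in both MEF samples, by a ratio of 9.94 (exact 95% interval 2.71 to 82.8) with an adjusted p of 0.0046, although DESeq2's Wald test gave 0.053. Klf4, a reprogramming factor, had 234, 329 and 66 counts, and its level of 47.3 CPM in the library labelled ESC lay between those of OG2 (41.5 CPM) and ICR MEFs (63.7 CPM). Its log2 difference of -0.12 was below the SD of 0.43 between the MEF samples (n = 2) and became -1.47 once GC content and length were corrected for. Klf5 had 54, 44 and 18 counts, or 9.58, 8.51 and 12.9 CPM, and did not pass the test (log2 difference 0.47, adjusted p = 0.17). The difference of Klf5 was -0.95 with TPM and 1.25 once GC content and length were corrected for, so its direction depended on the scale. The sign for Klf4 also turned, to 0.12 with TPM. Whether these factors differed from each other in their response was not tested.

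The other 10 naive genes had at most 1 count in the library labelled ESC. Zfp42, a widely used marker of naive cells, Dppa5a, an RNA-binding protein abundant in ESCs, Prdm14, a repressor of differentiation genes, the nuclear receptor Nr5a2, the F-box gene Fbxo15 and the AKT cofactor Tcl1 had 0 counts in each library. Esrrb, an orphan nuclear receptor, had 0, 1 and 0 counts, and Dppa3 (Stella), a maternal factor that protects DNA methylation, had 1, 0 and 0. The nuclear receptor Nr0b1 (Dax1) and the homeobox gene Gbx2 had a single count each, in the library labelled ESC. None of these counts reached 3, so no difference between the libraries was detectable for them.

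The primed genes were low in all libraries. Fgf5, the growth factor of the implanted epiblast, had 8, 13 and 2 counts, or 1.42, 2.52 and 1.43 CPM, with a log2 difference of -0.26 and an adjusted p of 0.85. Lin28b, the second let-7 regulator, had 2, 2 and 1 counts, and the homeobox gene Otx2 had 0, 0 and 1. With 2 counts or fewer each, the library labelled ESC showed none of the 3 at the limit of 3 counts.

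Of the ligands among the signalling genes, Fgf4, which ESCs secrete and which readies them for differentiation, had 0, 0 and 14 counts, at least 17.3-fold higher than 3 counts in ICR MEFs. Gdf3, a ligand of the TGF-beta family, had 0, 0 and 10 counts, at least 12.4-fold higher. Both were removed by edgeR's filter and have no p from it. They had counts in the library labelled ESC alone. Nodal, the ligand that maintains the epiblast, had 0 counts in all 3 libraries. Its inhibitor Lefty2 had 0, 0 and 1 counts, its coreceptor Tdgf1 (Cripto) 0, 0 and 2, and Eras, an ESC form of Ras, 0 in each. Lefty1, the other Nodal inhibitor, had 18 counts in OG2 MEFs and 0 in both other libraries. RSEM divides reads between near-identical genes such as Lefty1 and Lefty2, so their counts are uncertain. Alpl, the tissue-nonspecific alkaline phosphatase used to stain ESC colonies, had 11, 6 and 21 counts, or 1.95, 1.16 and 15.1 CPM. The library labelled ESC was above both MEF samples, with a ratio of 9.57 (exact 95% interval 4.81 to 19.3). The log2 difference of 2.67 became 0.99 with TPM and 1.005 once GC content and length were corrected for.

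The receptor chains for LIF went the other way. Lifr, which binds LIF, had 92, 123 and 2 counts, or 16.3, 23.8 and 1.43 CPM, and was lower in the library labelled ESC by a ratio of 13.9 (exact 95% interval 3.80 to 115) with an adjusted p of 0.0011. The log2 difference was -3.09, and -1.93 once GC content and length were corrected for. Il6st (chr13:112464070-112510086, plus strand), the signal-transducing chain gp130, had 3440, 3253 and 33 counts, or 611, 629 and 23.7 CPM. The log2 difference was -4.65, against an SD of 0.031 between the MEF samples (n = 2), a ratio of 26.2 (18.6 to 38.1) with an adjusted p of 8.1e-07. At the MEF level, Il6st would have had 864 counts at the depth of the library labelled ESC.

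**Figure D3:**
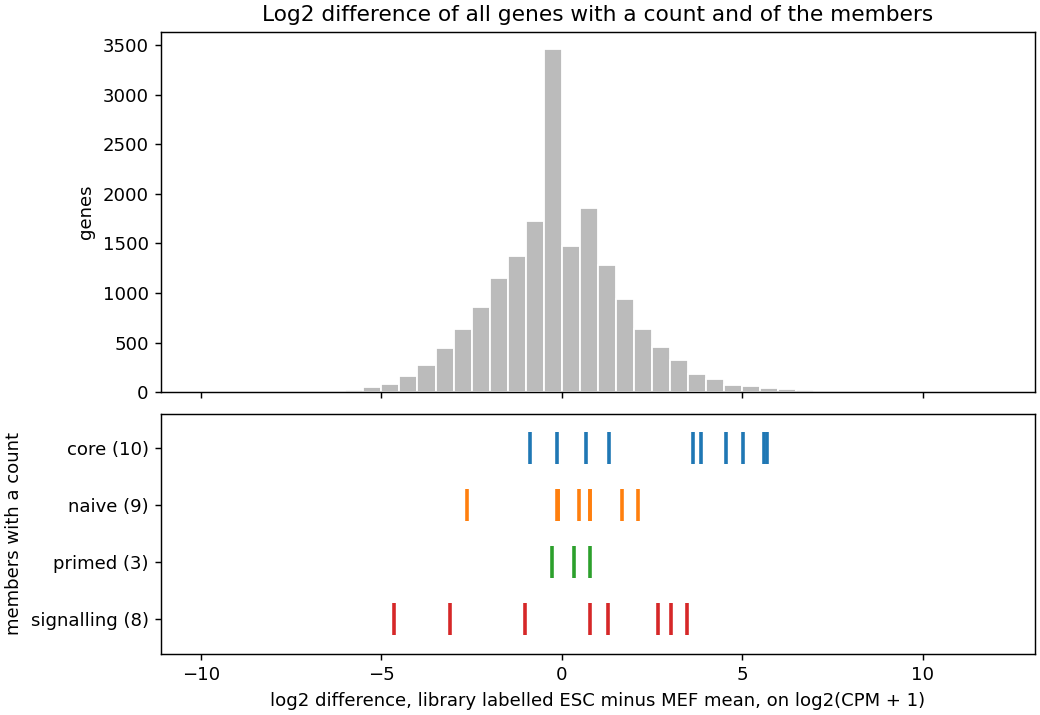
Histogram of the log2 difference of the library labelled ESC from the MEF mean over the 17810 genes with a count (upper panel, bins of 0.5) and the 30 genes of the list with a count as ticks by group (lower panel). Core genes formed a cluster of 6 between 3.64 and 5.70, and the 9 naive genes with a count lay between -2.63 and 2.10.

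In all, 10 of the 42 genes were expressed in both MEF samples at 1 TPM or more, against 41.8% of all genes in the tables. In OG2 and ICR MEFs, in this order, the levels were 320 and 293 TPM for Trim28, 185 and 198 TPM for Il6st, 39.3 and 46.6 TPM for Myc, and 29.2 and 47.9 TPM for Klf4. Klf2 had 13.4 and 22.6 TPM, Klf5 12.4 and 11.8 TPM, Tbx3 7.34 and 9.41 TPM, Lifr 3.45 and 7.45 TPM, Alpl 2.68 and 1.06 TPM, and Fgf5 1.22 and 2.32 TPM. The ranges of Myc and Klf4 overlapped, as did those of Tbx3 and Lifr and those of Alpl and Fgf5, so the order of these neighbours was not separated by the spread. Of the reprogramming factors, fibroblasts therefore had Klf4 and Myc, but 0.47 and 0.73 TPM of Sox2, and Pou5f1 was listed at 0. In the library labelled ESC the order was Trim28 (1328 TPM), Klf4 (40.7 TPM), Pou5f1 (29.6 TPM), Tdh (21.3 TPM), Myc (19.2 TPM) and Nanog (14.03 TPM), where the value of Trim28 and Klf4 rests on the short transcript lengths given above.

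**Figure D4:**
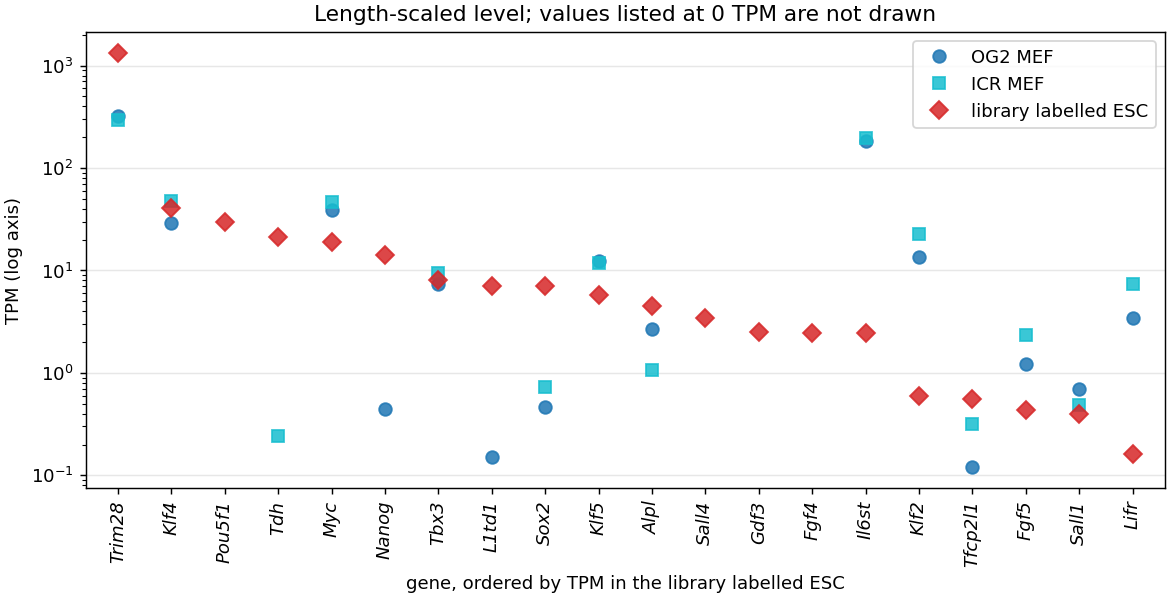
TPM (log axis) of the genes that had at least 1 TPM in both MEF samples or at least 3 counts in the library labelled ESC; circles are OG2 MEFs, squares ICR MEFs and diamonds the library labelled ESC, ordered by the latter; values of 0 are not drawn. Pou5f1, Sall4, Gdf3 and Fgf4 had a value in the library labelled ESC alone, while Il6st fell from 185 and 198 TPM to 2.45 TPM.

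Between the strains, 1 of the 30 genes with a count was at least 1 log2 unit apart, against 2.76% of all genes with a count. This was Lefty1, which was at least 5.504-fold higher in OG2 MEFs than 3 counts in ICR MEFs. The median of the absolute difference over the 30 genes was 0.20 log2 units, and the next largest was that of Tfcp2l1 at 0.62. With 1 library per strain there was no replicate check of these differences. The Oct4-GFP transgene of OG2 MEFs came with no count of Pou5f1.

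The surrounding pathways were read from lists of other genes. Of 15 genes of the LIF and STAT3 pathway, 2 were higher, 7 lower and 6 were not called, with a median log2 difference of -1.16 against -0.41 over all tested genes, of which 31.4% were higher and 36.0% lower. The kinase Jak1, which sits on gp130, had 1665, 1443 and 26 counts and a log2 difference of -3.88. The phosphatase Ptpn11 (-3.05) and Stat3 itself (-2.34; 1492, 1539 and 76 counts) were lower too, while the kinase Pim1 (0.91) and the STAT3 target Bcl3 (0.73) were higher. Of 21 genes of the FGF and ERK pathway, 19 were tested, 5 higher and 12 lower, against 31.4% and 36.0% of all tested genes, with a median of -1.67 over those tested. The share that was higher was near that of all genes. The receptor Fgfr3 (3.18), the kinase Map2k2 (2.77) and the ETS factor Etv4 (1.74) were higher, and the inhibitor Spry1 (-5.35), the adaptor Frs2 (-4.30) and the kinase Map2k1 (-3.36) were lower. In TPM, however, Etv4 had 19.9, 17.7 and 16.2 and Pim1 had 15.3, 18.9 and 11.0, so the direction of both depended on the scale. The paired kinases Map2k1 and Map2k2 thus differed in direction, with 650, 565 and 14 counts for the former and 670, 667 and 1187 for the latter.

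Of 16 Nodal and activin pathway genes in the tables, 13 were tested, 1 was higher and 9 were lower (all tested genes: 31.4% and 36.0%), with a median of -1.63 over the list and -2.05 over those tested. The higher gene was the receptor Acvr2b (2.95), and the lowest were the antagonist Fst (-3.99), the activin subunit Inhba (-3.90) and the transducer Smad3 (-3.84). The Nodal effector Foxh1 and the coreceptor Cfc1 had 0 counts in each library. Among 29 other pluripotency genes, 22 were tested, with 7 higher, 7 lower and 8 not called, which is close to the 31.4% and 36.0% of all tested genes in both directions, and a median of -0.15 over those tested. Epcam, Esrp1 and Cdh1 of this list are also simple epithelium markers. Pecam1, an adhesion molecule that ESCs carry (0, 0 and 90 counts, log2 difference 6.03), Morc1 (4.18) and Zfp296 (4.17) were the highest, and the repressor Rest (-3.06), the X-linked factor Zfx (-2.56) and Gli2 (-2.004) the lowest. Of 18 other primed epiblast genes, 4 were tested and 13 had 0 counts in the library labelled ESC, among them Pou3f1, Fgf8 and Cer1. Sox11 (4.07; 126, 73 and 439 counts) and Pim2 (2.45) were higher and Ccnd2 (-2.67) was lower.

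**Figure D5:**
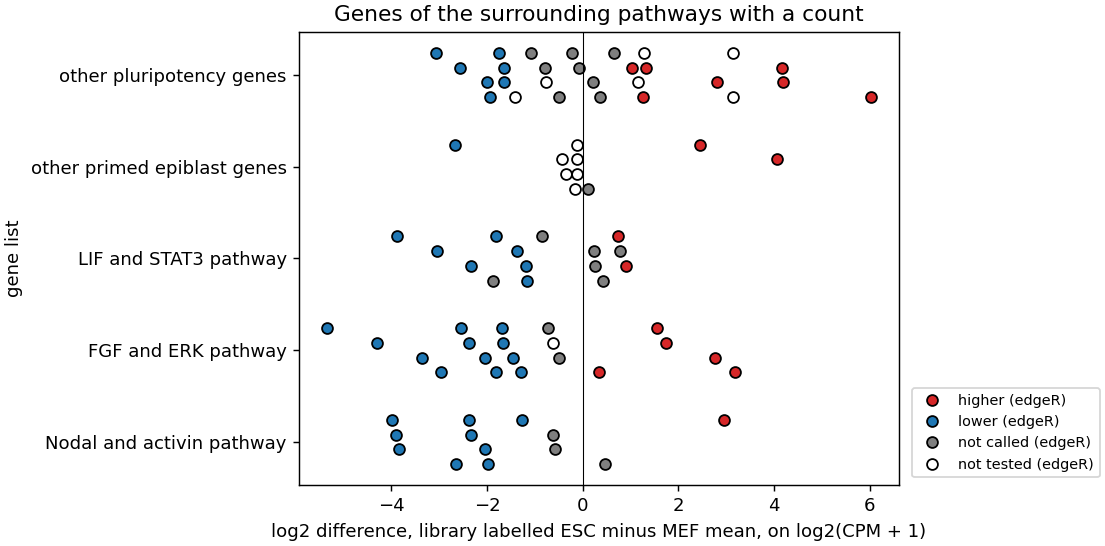
Log2 difference of the library labelled ESC from the MEF mean, on the log2(CPM + 1) scale, for each gene with a count in 5 lists of related genes; fills give the edgeR call and the vertical offset within a list only separates points. In the Nodal and activin list 9 genes were called lower and Acvr2b alone higher, while 7 of the other pluripotency genes were called in each direction, close to the shares of 31.4% higher and 36.0% lower over all tested genes.

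Length and GC content overlapped between the genes that were held and those that were not. The 17 genes held by the library labelled ESC had a median annotated transcript length of 2057 bases and a median GC content of 51.0%, against 1772 bases and 50.5% for the 25 that were not. The ranges overlapped, from 45.9 to 61.5% GC for the held genes and from 40.6 to 63.5% for the others. Over all genes with a count the medians were 1959 bases and 50.3%. Exons of Pou5f1, Sall4, Tdh and Tbx3 overlap annotated transcripts on the opposite strand, none of which had more than 1 count in a library. The exons of Eras overlap those of Pcsk1n, also on the opposite strand, which had 0, 0 and 360 counts, and since the counting is not stated to use strand, reads of this pair cannot be told apart where they overlap.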

How the data were processed

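RNA-seq gene tables of 3 libraries were analysed. By the study's methods the authors trimmed reads with TRIMMOMATIC, aligned them with bowtie2 to Ensembl transcripts and ran RSEM, while the submitters' processing notes list Bowtie, RSEM and mm10. Each deposited table holds expected counts (estimated reads per gene), TPM (which the authors' RSEM run scaled per length to 1 common sum) and FPKM, a deposited value per length and library size that was not used. Whether the GC-content normalization in the methods touches these values is not stated. The deposited lengths in bases, of an other unit, are RSEM's abundance-weighted means over transcripts.

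Expected counts were rounded, scaled by TMM (factors 1.09, 1.13 and 0.812 for OG2 MEFs, ICR MEFs and the library labelled ESC) and given as log2(CPM + 1). The test was edgeR 4.0.16 (R 4.3.3, quasi-likelihood, its filter on low counts), checked on simulated counts. Symbols, positions, GC content and annotated lengths came from GENCODE M21, where 98.3% of identifiers matched. Alternatives used DESeq2 1.42.0, limma 3.58.1, TPM, other pseudocounts and corrections in 20 bins each of GC content and length. The length corrected for was the mean over annotated transcripts, which can differ from that of RSEM. In the library labelled ESC the 2 were 792 and 2522 bases for Alpl and 2828 and 6981 bases for Il6st. The 42 genes, all of which are described, and the lists were chosen with earlier results of these data known. From other lists the 3 highest and 3 lowest called genes were named.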

Additional observations from a re-analysis of the deposited data

How the results depend on the processing

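Of the 42 genes, those at least 1 log2 unit below both MEF samples numbered 3, which became 5 with a GC-content correction and 7 with a correction of GC content and length. Leaving out a MEF sample gave 3 to 4, and 13 in each case for the genes at least 1 log2 unit above. Those 13 became 9 with TPM and 17 with a pseudocount of 0.1. The 17 genes held by the library labelled ESC became 26 at a limit of 1 count and 16 at 10 counts, and the 14 held by ICR MEFs became 9 at 10 counts. With TPM in place of CPM, the difference of Tbx3 turned to -0.045. Among genes that edgeR did not call, TPM also turned the sign of Klf5 (-0.95), Klf4 (0.12), Sall1 (-0.185) and Lin28b (-0.064), and median-of-ratios scaling that of Klf4 (0.073) and Myc (0.069). Full-quantile normalization turned Myc (0.14) and Klf4 (0.0075), and leaving out ICR MEFs turned Klf4 (0.18) and Fgf5 (0.0085). The GC-content correction turned Fgf5 (0.19), Dppa3 (0.49) and Lefty2 (-0.12). With length also corrected for, Fgf5 (0.45) and Lefty2 (-0.42) were turned. The cause was not tested, apart from the limits on counts, which act by construction. The genes called higher by edgeR stayed between 10 and 12, and those called lower between 2 and 3, with median-of-ratios size factors, without the filter and with DESeq2. Of the single-gene differences under alternatives that kept both MEF samples, 67 stayed within 1 SD of the MEF pair and 163 did not, besides that of Tbx3 with TPM. For genes with 0 counts in both MEF samples that SD is 0, so any change counted. The median log2 difference over 12726 genes shifted by -1.11 under TPM, by 0.19 under full-quantile normalization, by 0.17 under median-of-ratios scaling and by 0.13 under a pseudocount of 5. No paired analysis was possible because only 1 ESC library was analysed and titles share no replicate numbers. With the limit of 3 counts, depth restricts the library labelled ESC to levels above 2.15 CPM. The edgeR test could not be run without a MEF sample because no residual degree of freedom would remain.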
